A study of Mus musculus with 12 samples.

Results

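The 6 genes Calca, Calcb, Tac1, Adcyap1, Nmb and Cartpt encode precursors of neuropeptides that are known from peptidergic nociceptors, the small sensory neurons that sense painful stimuli and release peptides from both ends of their axon. They were chosen by name: the rows of the deposited table whose Ensembl ID, without its version, belongs to one of these mouse symbols, 6 of 38594 gene rows. All 6 were found in the table and passed the filter on low values. The tissue was lumbar dorsal root ganglia (DRG, L1 to L6), which hold the cell bodies of sensory neurons, from naive male C57BL/6J mice aged 6 to 12 weeks. Ganglia were taken at zeitgeber time (ZT) 2, 8, 14 or 20, with 3 libraries at each time and 12 in all; the groups differ in the labels by ZT alone, and no group carries an allele or an agent. The title of the series concerns clock genes of nociceptors and pain, and the question here is whether the peptide transcripts differ with the time of day. Nothing in the labels ties a library to an animal of its own or to a pool. The tests of time set differences between times against the spread of libraries within times, and that spread may be technical.

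A neuropeptide is made as a long precursor, cut by proprotein convertases in the secretory pathway, stored in dense-core vesicles and released on calcium entry. Calca gives calcitonin gene-related peptide (CGRP) or, by alternative splicing, calcitonin; Calcb gives the β form of CGRP. Tac1 gives substance P and neurokinin A, Adcyap1 gives pituitary adenylate cyclase-activating polypeptide (PACAP), Nmb gives neuromedin B and Cartpt gives the CART peptides. In sensory neurons CGRP and substance P are known for vasodilation, plasma leakage and transmission to the dorsal horn, and neuromedin B for a role in itch.

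Calca and Calcb are near neighbours with similar coding sequences, so the bases that tell them apart bear on both values. On GRCm38 Calca (ENSMUSG00000030669.13) lies on the minus strand of chromosome 7 from 114631478 to 114636357, and Calcb (ENSMUSG00000030666.11) on the plus strand from 114718643 to 114723365, with 82285 bases between them. A stretch of 120 bases set around the longest identical run of their coding sequences is shown with the bases that differ in capitals. It includes the start of the mature CGRP sequence. The Calca stretch is coding bases 197 to 316 of transcript Calca-201 (chr7:114632511-114634498, minus strand, an intron left out), and the Calcb stretch is coding bases 200 to 319 of Calcb-201 (chr7:114720184-114722063, plus strand, an intron left out), both from the GENCODE M21 transcripts.
Calca: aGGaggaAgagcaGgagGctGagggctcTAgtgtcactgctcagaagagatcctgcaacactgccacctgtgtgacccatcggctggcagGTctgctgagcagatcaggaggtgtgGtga
Calcb: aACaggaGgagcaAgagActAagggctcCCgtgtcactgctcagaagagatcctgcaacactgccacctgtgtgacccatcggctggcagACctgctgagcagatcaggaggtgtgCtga
Of these 120 bases 109 were identical and 11 differed, and over the 384 aligned coding bases without gaps 265 were identical. The longest identical run was 60 bases, shorter than a read of 150 bases. The table holds 1 value per gene, so the CGRP and calcitonin transcripts of Calca are not told apart.

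The promoters of 3 members are shown because the study is about clock genes, whose proteins act through short DNA elements, and because one of the cAMP pathway's elements is complete in the Cartpt window. Each is 300 bases, 250 before and 50 after a RefSeq start site on GRCm38.p6, written on the gene's strand. Capitals mark matches to CACGTG (an E-box, the element bound by the clock activators CLOCK and BMAL1), TGACGTCA (a cAMP response element) or TGACG (its core), on either strand.
Tac1 (chr6:7554811-7555110, plus strand): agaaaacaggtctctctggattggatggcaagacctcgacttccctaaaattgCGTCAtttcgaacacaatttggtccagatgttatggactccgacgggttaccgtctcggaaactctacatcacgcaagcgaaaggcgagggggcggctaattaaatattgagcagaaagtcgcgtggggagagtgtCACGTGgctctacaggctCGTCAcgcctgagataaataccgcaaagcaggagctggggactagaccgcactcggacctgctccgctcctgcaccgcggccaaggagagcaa
Calca (chr7:114636308-114636607, minus strand): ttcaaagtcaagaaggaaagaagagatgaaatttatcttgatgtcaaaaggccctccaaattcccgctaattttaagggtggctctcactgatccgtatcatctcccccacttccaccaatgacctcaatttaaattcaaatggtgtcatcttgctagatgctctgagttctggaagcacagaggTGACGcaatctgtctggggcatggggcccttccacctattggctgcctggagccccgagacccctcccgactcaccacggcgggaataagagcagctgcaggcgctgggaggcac
Cartpt (chr13:99900634-99900933, minus strand): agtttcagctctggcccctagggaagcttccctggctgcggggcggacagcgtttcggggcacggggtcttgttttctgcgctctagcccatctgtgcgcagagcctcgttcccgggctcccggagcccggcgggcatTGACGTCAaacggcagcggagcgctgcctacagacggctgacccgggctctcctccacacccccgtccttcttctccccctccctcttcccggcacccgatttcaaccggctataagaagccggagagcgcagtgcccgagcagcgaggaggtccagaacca
The Tac1 window held an E-box that began 61 bases before the start site, and cores that began 197 and 43 bases before it. The Cartpt window held a complete cAMP response element that began 112 bases before the start, which by its letters also contains the core TGACG on both strands, and the Calca window held 1 core that began 65 bases before the start. RefSeq windows were matched for 5 of the 6 members, and Calcb was not matched. The 2 Adcyap1 windows overlap, and both held the same single core, and the Nmb window held none of the 5 elements searched. The other elements were a D-box (TTATGTAA or TTACGTAA) and a ROR element (TAGGTCA), of which no member had a match. Among all 32817 windows of this length, 7.15% held the E-box, 1.79% the complete cAMP element, 20.8% the core TGACG, 1.05% a D-box and 2.61% the ROR element. A match is a description of letters, not of a bound site.

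The deposited values behave as coverage per base, so CPM made from them (values scaled to 1000000 per library) are already per length and may be set side by side between genes. On this scale the order of mean levels over the 12 libraries was Calca at 2713 CPM, Tac1 at 516 CPM, Calcb at 181 CPM, Adcyap1 at 94.6 CPM, Cartpt at 35.9 CPM and Nmb at 33.6 CPM. Calca ranked 30 by mean level among the 25809 genes tested, Tac1 224, Calcb 887, Adcyap1 1864, Cartpt 4599 and Nmb 4894. The ranges over libraries of Calca, Tac1, Calcb and Adcyap1 did not touch one another, whereas the ranges of Cartpt (25.5 to 50.9 CPM) and Nmb (13.4 to 69.7 CPM) overlapped. Calca made up 73.6% to 77.6% of the summed level of the 6 genes in every library, and that sum lay between 3187 and 3941 CPM. In bulk tissue, fewer cells of a type and less RNA per cell cannot be told apart.

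None of the 6 genes passed an edgeR quasi-likelihood test of time of day after Benjamini-Hochberg adjustment over all genes tested. The tests asked for any difference between the 4 times, for a 24-h cosine, and for a 12-h alternation in which ZT2 and ZT14 are set against the other 2 times. Over all genes 0.0504% passed the any-time test, 0.0659% the 24-h test and 0% the 12-h alternation (13, 17 and 0 of 25809 genes). At an unadjusted p under 0.05, 2 of the 6 members (Calcb and Adcyap1) counted in the any-time test, where 6.19% of all genes did, the same 2 in the 24-h test, where 5.2% did, and 0 in the 12-h alternation, where 7.44% did. DESeq2 gave 0 of the 6 as well in all 3 tests. The clock genes show what the same libraries resolved: 7 of the 15 listed passed the any-time test and 8 the 24-h test, and Arntl (BMAL1) was at 6.24 ± 0.178, 2.83 ± 0.360, 2.63 ± 0.144 and 6.39 ± 0.741 CPM at ZT2, ZT8, ZT14 and ZT20 (SD, n = 3 each), a fitted 24-h amplitude of 0.86 ± 0.056 (SE, log2).

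Contrasts between pairs of times gave no call either. None of the 6 members passed any of the 6 contrasts after adjustment, where 0.0465% of all genes passed for ZT14 against ZT2, 0.0232% for ZT20 against ZT8, 0.0194% for ZT8 against ZT2, 0% for ZT14 against ZT8, 0.0426% for ZT20 against ZT14 and 0.00387% for ZT2 against ZT20. At an unadjusted p under 0.05, Calcb and Adcyap1 counted for ZT14 against ZT2 (5.19% of all genes) and for ZT20 against ZT8 (5.28%), Adcyap1 for ZT8 against ZT2 (5.78%) and Calcb for ZT2 against ZT20 (7.05%). No member counted for ZT14 against ZT8 (6.3%) or ZT20 against ZT14 (6.28%). Libraries of a pair of times stood apart without overlap in 6 of the 36 member contrasts. For ZT14 against ZT2 1 member was lower (5.38% of all genes) and 0 higher (5.79%), for ZT20 against ZT8 1 was higher (5.35%) and 0 lower (4.54%), and for ZT8 against ZT2 1 was lower (5.56%) and 0 higher (6.13%). For ZT14 against ZT8 there was none (5.61% higher, 5.71% lower), for ZT20 against ZT14 1 was lower (5.58%) and 0 higher (5.78%), and for ZT2 against ZT20 1 was higher (7.18%) and 1 lower (7.59%). These shares of members are of 6 genes, and every percentage is of the 25809 tested.

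**Figure D1:**
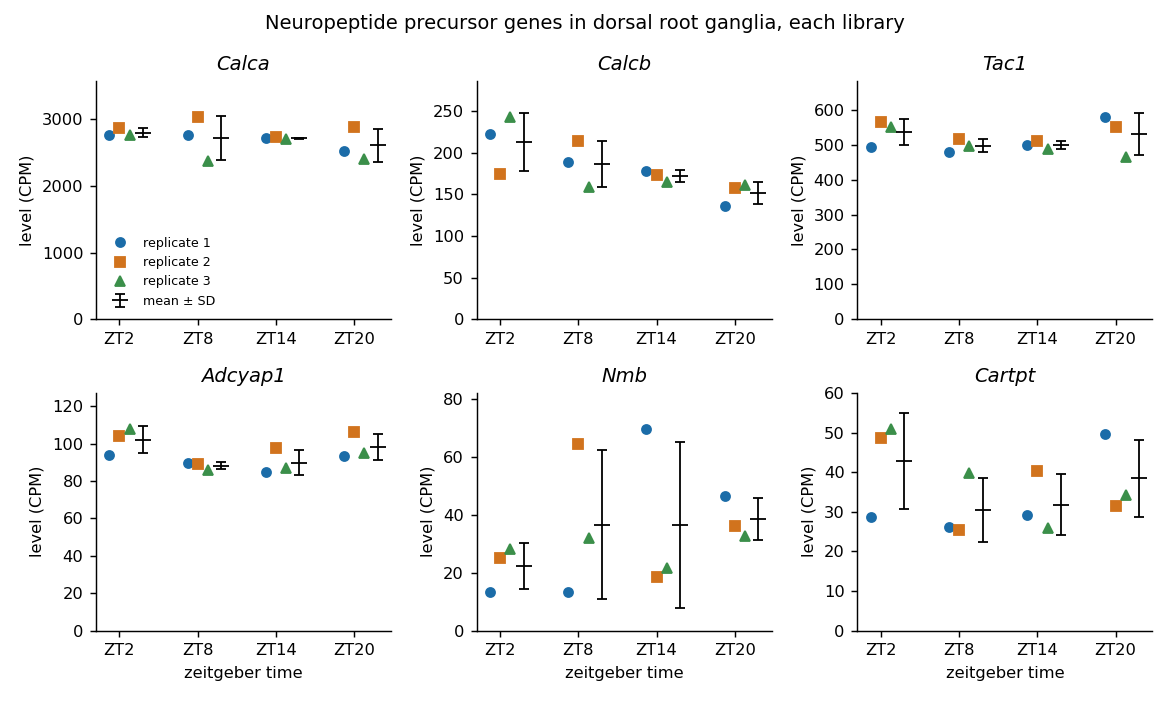
Level of each of the 6 genes (CPM, linear axis from 0) in each of the 3 libraries at ZT2, ZT8, ZT14 and ZT20, with the mean ± SD of the 3 beside the points. Calca, Tac1 and Adcyap1 stayed within 1.28-fold over the 12 libraries, the mean of Calcb was 213 CPM for ZT2 and 151 CPM for ZT20, and Nmb spanned 5.22-fold.

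Calca, the most abundant member, spanned 1.28-fold over the 12 libraries. It had 2762, 2877 and 2760 CPM at ZT2, 2763, 3032 and 2373 CPM at ZT8, 2714, 2731 and 2710 CPM at ZT14, and 2530, 2889 and 2409 CPM at ZT20. The highest library was at ZT8, as was the lowest. The SD of log2 CPM within times was 0.11, at percentile 70.5 of genes with a mean of 5 CPM or more. ZT14 against ZT2 gave a log2 fold change of -0.04 (95% interval -0.22 to 0.14), and ZT20 against ZT8 gave -0.06 (-0.24 to 0.12), which turned to 0.023 without ZT8 replicate 2. The 3 libraries of ZT14 were all below those of ZT2, a lower position without overlap that 5.38% of all genes had in this contrast. The fitted 24-h amplitude was 0.04 ± 0.041 (SE, log2; 0.024 to 0.081 without 1 library), against a median of 0.10 over all genes tested, which include low and more variable ones.

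Calcb had the lowest p of the 6 in the any-time test, and its mean level was lower at each later time. Its levels were 222, 174 and 242 CPM at ZT2, 188, 214 and 159 CPM at ZT8, 178, 173 and 164 CPM at ZT14, and 136, 157 and 161 CPM at ZT20. The means were 213 ± 35.2, 187 ± 27.6, 172 ± 7.20 and 151 ± 13.2 CPM at ZT2, ZT8, ZT14 and ZT20 (SD, n = 3 each). All 3 ZT2 libraries lay above all 3 ZT20 libraries, a position that 7.18% of all genes had in that contrast. ZT2 against ZT20 was 1.40-fold (log2 0.49 ± 0.126 SE, 95% interval 0.21 to 0.77), with an edgeR p of 0.00242 and an adjusted p of 0.562, so it did not pass. ZT14 against ZT2 gave -0.31 (-0.58 to -0.03) and ZT20 against ZT8 gave -0.30 (-0.58 to -0.03), with edgeR adjusted p = 0.923 and 0.936, and the libraries overlapped in both. They were -0.20 without ZT2 replicate 3 and -0.20 without ZT8 replicate 2. The 24-h fit had an amplitude of 0.22 ± 0.063 (SE, log2) with its highest point at ZT4.97, an unadjusted p of 0.0176 and an edgeR adjusted p of 0.799. Leaving out the library richest in muscle markers at each time, a setting chosen after seeing the data, gave the largest amplitude among the alternatives run, 0.29. The adjusted any-time p ran from 0.0816, with DESeq2, to 0.943, with edgeR without ZT2 replicate 1.

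Levels of markers of other cells are given beside Calcb. The summed level of 7 other peptidergic nociceptor markers (Gfra3, Trpv1, Kit, Sstr2, Adra2a, Bmpr1b and Smr2) was 274 to 325 CPM in ZT2 libraries and 267 to 282 CPM in ZT20 libraries, and the times overlapped. The summed level of 5 myelinating Schwann cell markers (Mbp, Pmp22, Prx, Egr2 and Mag) was 3701 to 4034 CPM in ZT2 libraries and 4057 to 4674 CPM in ZT20 libraries, without overlap. Over the 12 libraries Calcb had r = -0.78 with this Schwann cell sum (rho -0.80, permutation p 0.00256 for both, n = 12). The adjusted permutation p was 0.0845 and 0.0563 over 66 relations of a member with a marker sum. Without the 2 libraries farthest from the median of the sum (ZT8 replicate 2 and ZT20 replicate 1) r was -0.75, and within times it was -0.81. Calca had r = -0.61 with the same Schwann cell sum (rho -0.71, permutation p 0.0335 and 0.0131, n = 12, adjusted p 0.221 and 0.187). For Calca r was -0.35 without those 2 libraries and -0.65 within times. With the sum of 9 non-peptidergic nociceptor markers Calcb had r = 0.64 (rho 0.46, permutation p 0.0244 and 0.135, n = 12, adjusted p 0.201 and 0.423). That r was 0.35 without the 2 farthest libraries and 0.80 within times. Calca had r = 0.65 with the non-peptidergic sum (rho 0.61, permutation p 0.0212 and 0.0396, n = 12, adjusted p 0.200 and 0.234). With the peptidergic sum Calcb had r = 0.47 (rho 0.16, permutation p 0.119 and 0.622, n = 12, adjusted p 0.394 and 0.841). The single markers of this sum differed. Calcb had r of 0.39 with Gfra3, 0.18 with Trpv1, 0.63 with Kit, -0.43 with Sstr2, -0.33 with Adra2a, 0.31 with Bmpr1b and 0.69 with Smr2. The r with a sum thus depends on which markers it holds. Leaving out genes that are not reported here lowered the r of Calcb with the peptidergic sum and raised that of Cartpt. None of the 66 relations passed the adjustment, and the part of these markers in the Calcb levels was not tested. The ratio of Calca to Calcb was 13.5 ± 2.73, 14.6 ± 0.392, 15.8 ± 0.650 and 17.3 ± 2.03 at ZT2, ZT8, ZT14 and ZT20 (SD, n = 3 each).

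Tac1, the substance P precursor, had the smallest ratio of the highest to the lowest library among the 6. The gene (ENSMUSG00000061762.12) lies on the plus strand at chr6:7554879-7565834. It had 493, 564 and 552 CPM at ZT2, 479, 516 and 497 CPM at ZT8, 501, 510 and 489 CPM at ZT14, and 579, 552 and 464 CPM at ZT20. The highest and the lowest library were both at ZT20, and their ratio was 1.25. ZT14 against ZT2 gave a log2 fold change of -0.10 (95% interval -0.27 to 0.06) and ZT20 against ZT8 gave 0.10 (-0.07 to 0.26), which ran from 0.032 without ZT20 replicate 1 to 0.18 without ZT20 replicate 3. ZT14 against ZT2 was -0.16 without ZT2 replicate 1. The libraries overlapped in both contrasts, and the edgeR adjusted p of the 24-h fit was 0.994.

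Adcyap1, the PACAP precursor (ENSMUSG00000024256.7, chr17:93199017-93206537, plus strand), had means of 102 ± 7.25, 88.2 ± 1.90, 89.9 ± 6.71 and 98.2 ± 7.08 CPM at ZT2, ZT8, ZT14 and ZT20 (SD, n = 3 each). Its levels were 93.9, 104 and 108 CPM at ZT2, 89.6, 89.0 and 86.1 CPM at ZT8, 85.1, 97.6 and 87.1 CPM at ZT14, and 93.5, 106 and 94.8 CPM at ZT20. All 3 ZT8 libraries lay below those of ZT2 and below those of ZT20. ZT8 against ZT2 had a log2 fold change of -0.21 (95% interval -0.36 to -0.06, edgeR adjusted p = 0.766), with no overlap, which 5.56% of all genes had in the lower direction. ZT20 against ZT8 gave 0.15 (0.004 to 0.31, edgeR adjusted p = 0.936), with no overlap, which 5.35% of all genes had in the higher direction; it was 0.089 without ZT20 replicate 2. ZT14 against ZT2 gave -0.18 (-0.33 to -0.03, edgeR adjusted p = 0.905). The 24-h amplitude was 0.12 ± 0.034 (SE, log2), highest at ZT23.3, with an unadjusted p of 0.0166 and an edgeR adjusted p of 0.797.

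**Figure D2:**
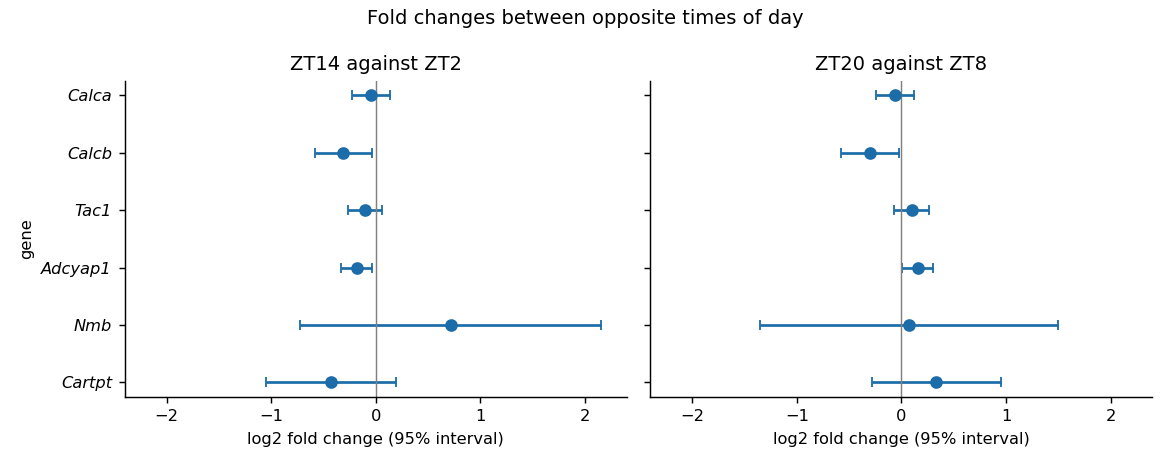
Log2 fold change with its 95% interval from the edgeR fit for each of the 6 genes, ZT14 against ZT2 on the left and ZT20 against ZT8 on the right. The intervals of Calcb leave out 0 on the lower side in both panels, those of Adcyap1 leave it out on the lower side for ZT14 against ZT2 and on the higher side for ZT20 against ZT8, and the intervals of Nmb run from -0.72 to 2.15 and from -1.35 to 1.49; no gene passed after adjustment over all genes.

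Nmb varied between libraries of the same time more than nearly all genes with a mean of 5 CPM or more. It had 13.4, 25.2 and 28.4 CPM at ZT2, 13.5, 64.5 and 32.2 CPM at ZT8, 69.7, 18.6 and 21.8 CPM at ZT14, and 46.7, 36.2 and 32.9 CPM at ZT20. The highest library was ZT14 replicate 1 and the lowest ZT2 replicate 1, 5.22-fold apart, and the 3 libraries of ZT8 alone ran from 13.5 to 64.5 CPM. The SD of log2 CPM within times was 0.83, at percentile 99.2 of the 11866 genes tested with a mean of 5 CPM or more, whose median was 0.09. The 3 ZT2 libraries all lay below the 3 ZT20 libraries, which 7.59% of all genes did, with ZT2 against ZT20 at -0.79 (95% interval -2.22 to 0.65). ZT14 against ZT2 gave 0.72 (-0.72 to 2.15), which turned to -0.15 without ZT14 replicate 1. ZT20 against ZT8 gave 0.07 (-1.35 to 1.49), which turned to -0.32 without ZT8 replicate 1, to -0.016 without ZT8 replicate 3 and to -0.087 without ZT20 replicate 1.

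Nmb overlaps a neighbouring gene, so its values are uncertain. Nmb (ENSMUSG00000025723.12, chr7:80902227-80905076, minus strand) shares 188 bases with Sec11a, a signal peptidase subunit on the same strand, and Wdr73, a WD repeat gene, lies next to it on that strand. The rule by which reads in shared bases were counted is not known here. Sec11a had 21.8, 33.1 and 54.5 CPM at ZT2, 47.5, 26.8 and 40.6 CPM at ZT8, 27.5, 26.3 and 32.9 CPM at ZT14, and 47.0, 35.3 and 30.3 CPM at ZT20. Wdr73 spanned 17.2 to 59.0 CPM over the 12 libraries. Both neighbours also varied within times (SD of log2 CPM 0.43 and 0.60, at percentiles 97.9 and 98.7), and they were high in different libraries from each other and from Nmb: r with Nmb was -0.002 for Sec11a and -0.04 for Wdr73, and r between Sec11a and Wdr73 was -0.82 (12 libraries, given as a description). The part of read assignment in the Nmb levels was not tested.

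**Figure D3:**
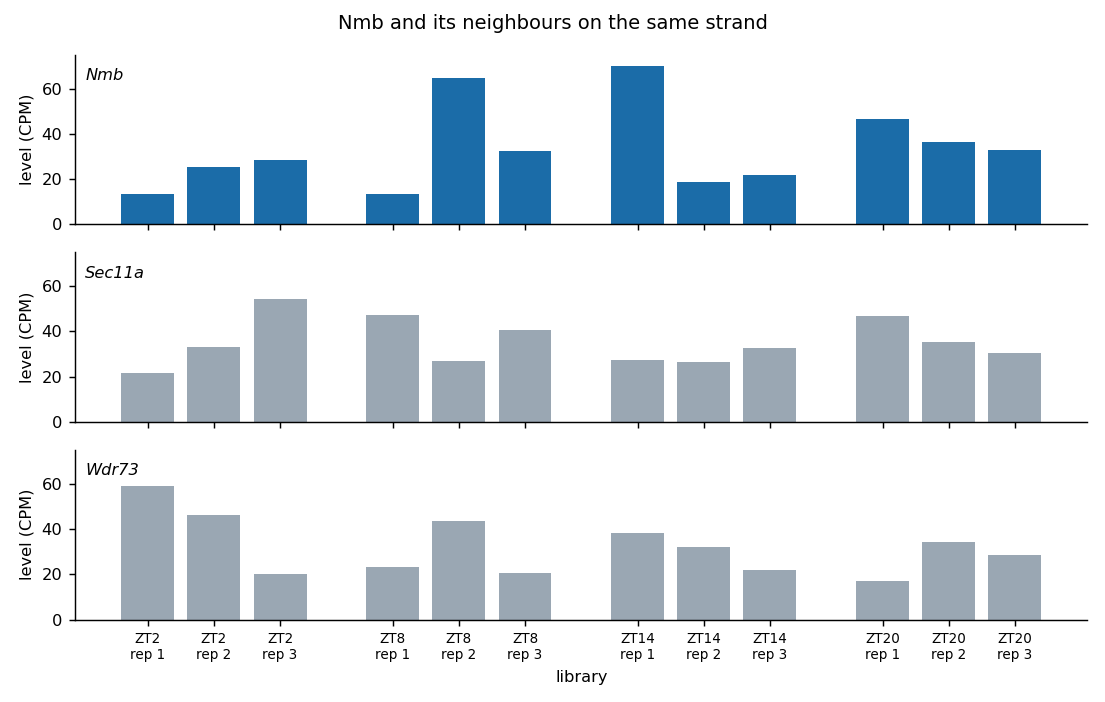
Level of Nmb, Sec11a and Wdr73 (CPM, linear axis from 0) in each of the 12 libraries, grouped by time. Nmb was highest in ZT14 replicate 1 (69.7 CPM) and ZT8 replicate 2 (64.5 CPM), Sec11a in ZT2 replicate 3 (54.5 CPM) and Wdr73 in ZT2 replicate 1 (59.0 CPM).

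Among the 66 relations of a member with a marker sum, that of Nmb with the summed level of 12 pan-neuronal genes had the lowest p. The correlation was r = 0.81 (rho 0.83, permutation p 0.00140 and 0.00137, n = 12, adjusted p 0.0845 and 0.0563). It was 0.77 without the 2 libraries farthest from the median of that sum and 0.79 within times. The pan-neuronal sum itself spanned only 15832 to 16831 CPM. The 3 genes most like Nmb over the libraries, of 11860 candidates, were Psmd4, a proteasome subunit (r = 0.91), Rpl10a, a ribosomal protein (0.91), and Tubb2a, a tubulin (0.91), which spanned 1.10- to 1.14-fold where Nmb spanned 5.22-fold.

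Cartpt (ENSMUSG00000021647.7, chr13:99898489-99901091, minus strand) was at a level like that of Nmb and differed between libraries of the same time. It had 28.8, 48.6 and 50.9 CPM at ZT2, 26.1, 25.5 and 39.9 CPM at ZT8, 29.2, 40.4 and 25.8 CPM at ZT14, and 49.6, 31.5 and 34.4 CPM at ZT20. High libraries occurred at ZT2 (replicates 2 and 3) and at ZT20 (replicate 1), and the times overlapped in all contrasts. ZT14 against ZT2 gave a log2 fold change of -0.43 (95% interval -1.05 to 0.19) and ZT20 against ZT8 gave 0.33 (-0.28 to 0.95). Leaving out 1 library moved the first to between -0.65 (without ZT2 replicate 1) and -0.28 (without ZT2 replicate 3), and the second to between 0.11 (without ZT20 replicate 1) and 0.57 (without ZT8 replicate 3). The SD of log2 CPM within times was 0.38, at percentile 97.2 of genes with a mean of 5 CPM or more.

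The 3 genes whose levels over the libraries were most like those of Cartpt, of 11860 candidates, were Penk, the precursor of the enkephalin opioid peptides (r = 0.95), Chrna3, a nicotinic acetylcholine receptor subunit (0.95), and Kcnk2, a background potassium channel (0.94). Penk had 25.2, 41.8 and 55.7 CPM at ZT2, 19.0, 25.7 and 42.7 CPM at ZT8, 26.0, 37.7 and 23.5 CPM at ZT14, and 65.0, 28.8 and 30.6 CPM at ZT20. Penk was thus high in the libraries in which Cartpt was high, and within times the correlation was 0.94 for Penk, 0.95 for Chrna3 and 0.94 for Kcnk2. These genes were picked for likeness, so their r is a description without a test. A set of 132 relations, of the 6 members with 14 other neuropeptide precursors and 8 peptidergic nociceptor markers, was tested by permutation over libraries (100000 resamples, two-sided), and 4 passed the adjustment by both r and rho; they are named after their values were seen. Cartpt with Penk had r = 0.95 and rho = 0.92 (permutation p 1e-05, the smallest the resamples can give, and 5e-05; adjusted p 0.00132 and 0.0066; n = 12; 0.93 without the 2 farthest libraries). Cartpt with Gal, the galanin precursor, had r = 0.91 and rho = 0.90 (adjusted permutation p 0.00396 and 0.0119, n = 12; 0.84 without the 2 farthest, 0.89 within times). Cartpt with Trpv1, the capsaicin- and heat-gated channel, had r = 0.90 and rho = 0.88 (adjusted permutation p 0.00132 and 0.0119, n = 12). This r was 0.96 without the 2 farthest and 0.90 within times. Other peptidergic markers differed in their r with Cartpt. It was 0.77 for Adra2a, 0.67 for Sstr2, 0.46 for Gfra3, 0.23 for Bmpr1b, -0.02 for Kit and -0.56 for Smr2. The fourth relation that passed was Tac1 with Gfra3, the receptor of artemin, with r = 0.80 and rho = 0.84 (adjusted permutation p 0.0436 and 0.0379, n = 12). This r was 0.83 without the 2 farthest and 0.83 within times. With Tac1, r was 0.63 for Adra2a, 0.60 for Sstr2, 0.58 for Trpv1, 0.21 for Bmpr1b, -0.09 for Smr2 and -0.10 for Kit.

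**Figure D4:**
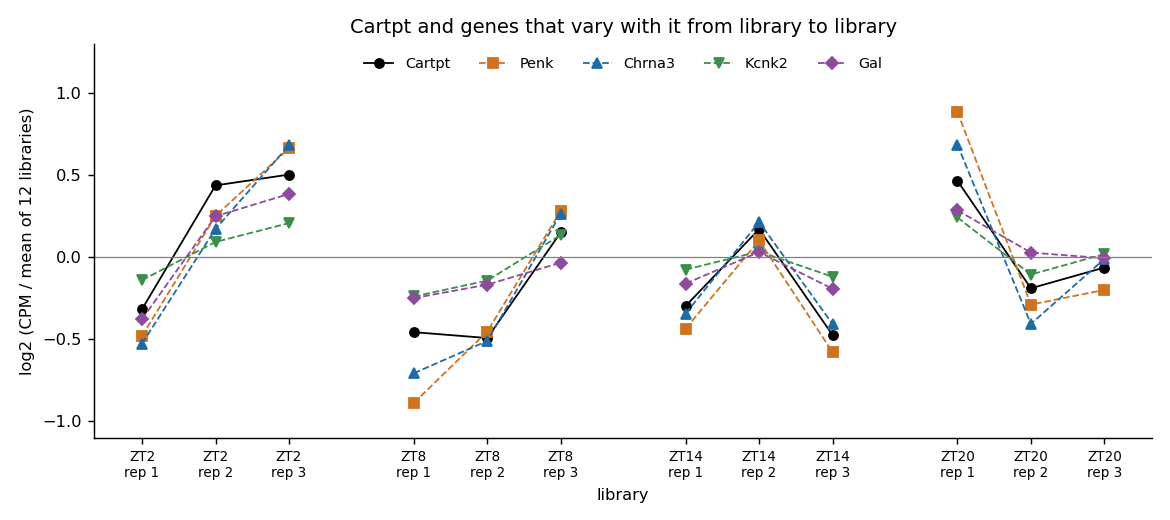
Log2 of the level over the mean of the 12 libraries for Cartpt (solid line) and for Penk, Chrna3, Kcnk2 and Gal (dashed lines), by library in groups of time; lines join libraries of 1 time for tracing only, since replicates have no order. All 5 genes were above their mean in ZT2 replicates 2 and 3, ZT14 replicate 2 and ZT20 replicate 1.

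Markers of other neurons are given beside the Cartpt result. The sympathetic markers Dbh, Slc6a2, Phox2a and Hand2 were near 0: the highest library had 0.234 CPM for Dbh, 0.132 CPM for Slc6a2, 0.056 CPM for Phox2a and 0.065 CPM for Hand2. Th, which DRG neurons also express, averaged 143 CPM and had 123, 135 and 167 CPM at ZT2, 123, 129 and 159 CPM at ZT8, 156, 128 and 136 CPM at ZT14, and 179, 125 and 156 CPM at ZT20. Its highest libraries, ZT20 replicate 1 and ZT2 replicate 3, were among those high in Cartpt. The sum of these 5 sympathetic markers, nearly all of it Th, had r = 0.61 with Cartpt (rho 0.57, permutation p 0.0403 and 0.0595, n = 12; adjusted p 0.242 and 0.274), 0.29 without the 2 farthest libraries and 0.64 within times. The sum of the 7 other peptidergic markers had r = 0.67 with Cartpt (rho 0.61, permutation p 0.0112 and 0.0398, n = 12, adjusted p 0.179 and 0.234). This r was 0.35 without the 2 farthest libraries and 0.64 within times, and it depends on which markers the sum holds. The relation was not particular to Cartpt. With the same sum Adcyap1 had r = 0.72, Tac1 0.67 (rho 0.82, adjusted permutation p 0.0563 for rho), Calcb 0.47, Calca 0.36 and Nmb 0.08. The spinal cord sum was 7.38 to 9.16 CPM. Non-peptidergic nociceptor markers had r = -0.66 with Cartpt (rho -0.61, permutation p 0.0170 and 0.0403, n = 12; adjusted p 0.187 and 0.234), -0.46 without the 2 farthest. The part of these markers in the Cartpt levels was not tested.

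Over the 15 pairs of members none passed the adjustment. The lowest p was that of Tac1 with Cartpt, r = 0.66 and rho = 0.59 (permutation p 0.0218 and 0.0460, n = 12; adjusted p 0.276 and 0.466), which was 0.42 without the 2 farthest libraries and 0.55 within times. Tac1 with Adcyap1 had r = 0.61 and rho = 0.42 (permutation p 0.0374 and 0.177, n = 12; adjusted p 0.276 and 0.551). The pair of CGRP genes, Calca and Calcb, had r = 0.51 and rho = 0.48 (permutation p 0.0882 and 0.124, n = 12; adjusted p 0.331 and 0.551).

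**Figure D5:**
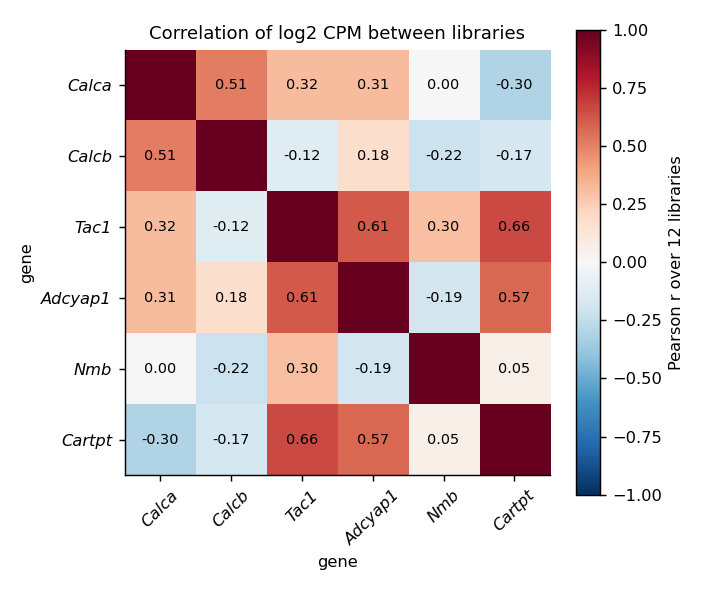
Pearson r of log2 CPM over the 12 libraries for each pair of the 6 genes, from -1 (blue) to 1 (red). Tac1, Adcyap1 and Cartpt had r of 0.57 to 0.66 with one another, Calca and Calcb had 0.51, and Nmb was between -0.22 and 0.30 with the other 5; no pair passed the adjustment over the 15 pairs.

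The genes most like the other members are given as descriptions, each over 12 libraries and of 11860 candidates. Calca was most like Trpa1, the irritant-gated channel of nociceptors (r = 0.92), Rpl36a-ps3, a ribosomal protein pseudogene (0.92), and Lipo3 (0.91). Trpa1 had 31.9, 32.4 and 33.3 CPM at ZT2, 32.6, 35.9 and 25.8 CPM at ZT8, 29.3, 32.0 and 31.1 CPM at ZT14, and 25.7, 34.2 and 27.7 CPM at ZT20, low in the same ZT8 and ZT20 libraries as Calca. Calcb was most like Champ1 (0.89), Fastkd1 (0.88) and Dennd1b (0.88). Adcyap1 was most like Kcnc2, a voltage-gated potassium channel (0.91), Ubxn2b (0.87) and Zfp68 (0.85). Tac1 was most like the pseudogenes Gpx4-ps2 (0.90), Rpl19-ps11 (0.87) and Rpsa-ps2 (0.87), which may share reads with their parent genes.

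The receptors of these peptides were mostly at a low level in the ganglion, and none passed a test of time. Of the 14 listed, 12 were tested and 0 passed either test of time, with 0 at an unadjusted any-time p under 0.05. Among the 2 with the lowest p, Adcyap1r1, the PACAP receptor, was at 1.67 ± 0.111, 1.81 ± 0.147, 1.61 ± 0.156 and 1.97 ± 0.064 CPM at ZT2, ZT8, ZT14 and ZT20 (SD, n = 3 each), and Vipr2, which also binds PACAP, averaged 0.428 CPM. Crcp, a component of CGRP receptor signalling, was the most abundant at 69.1 CPM. Tacr1, the substance P receptor, averaged 0.148 CPM, Nmbr, the neuromedin B receptor, 0.573 CPM and Calcrl, the CGRP receptor's core subunit, 4.38 CPM, and Calcr and Grpr were below the filter. The median log2 fold change of the 12 was -0.02 at ZT14 over ZT2 and 0.10 at ZT20 over ZT8, against -3.09e-05 and 0.002 over all genes tested.

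The machinery that makes, stores and degrades peptides gave the same count of 0 in both tests. All 12 processing enzymes were tested; Scg5, a chaperone of the convertase PC2, and Pcsk1, a convertase, had the lowest any-time p (0.168 and 0.291), and Cpe, the carboxypeptidase that trims cut peptides, was the most abundant at 866 CPM. All 16 genes of dense-core vesicle cargo and release were tested, and 1 had an unadjusted any-time p under 0.05: Chgb, a vesicle granin, at 87.9 ± 4.86, 78.1 ± 4.61, 83.4 ± 4.26 and 76.0 ± 6.94 CPM at ZT2, ZT8, ZT14 and ZT20 (SD, n = 3 each; edgeR adjusted p = 0.804). Rab3a, a vesicle GTPase, had the next lowest p at 0.210, and Snap25, a fusion protein, was the most abundant at 1882 CPM. All 8 peptide-degrading enzymes were tested, with Ace and Prep at the lowest p (0.155 and 0.192) and Ece2 the most abundant at 76.9 CPM. The median 24-h amplitude was 0.05 for processing enzymes, 0.04 for vesicle genes and 0.10 for degrading enzymes, against 0.10 over all genes tested.

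Of 18 other neuropeptide precursors 14 were tested and 0 passed, and of 16 regulators of peptide genes 15 were tested and 0 passed. Gal was the most abundant of the precursors at 43.7 CPM, with 47.6 ± 12.3, 39.5 ± 3.01, 40.7 ± 3.50 and 47.1 ± 5.35 CPM at ZT2, ZT8, ZT14 and ZT20 (SD, n = 3 each); with Nms, at 0.370 CPM, it had the lowest any-time p (0.269 and 0.115). The median log2 fold change of the 14 was -0.20 at ZT14 over ZT2 and 0.15 at ZT20 over ZT8, against -3.09e-05 and 0.002 over all genes tested. Their median amplitude was 0.23, against 0.10. These medians include precursors at a very low level. Adm2, Tac2, Grp, Pdyn, Nmu, Nms and Ucn, named after their values were seen, averaged 0.0863 to 0.503 CPM. Among the 15 regulators, 2 had an unadjusted any-time p under 0.05, where 6.19% of all genes did. Fos, an immediate early transcription factor, was at 7.63 ± 0.966, 5.08 ± 0.690, 7.71 ± 1.95 and 4.83 ± 0.392 CPM at ZT2, ZT8, ZT14 and ZT20 (SD, n = 3 each; edgeR adjusted p = 0.421). Creb1, which binds the cAMP response element, was at 11.5 ± 0.892, 9.54 ± 0.380, 10.9 ± 1.02 and 9.47 ± 0.480 CPM (edgeR adjusted p = 0.634). Both were higher at ZT2 and ZT14 than at ZT8 and ZT20, a pattern that no gene passed in the 12-h alternation.

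Facts of the libraries limit all of this. The deposited values summed to 89.8 or more per library, up to 125.0, in units of 1000000, which is not a read number, and depth comes to roughly 47.9 to 67.1 in that unit. Sensory neuron markers were at 2164 to 2523 CPM in every library and the summed pan-neuronal markers at 15832 CPM or more, and the sum of 7 skeletal muscle markers ranged from 19.8 to 661 CPM, Pvalb being left out of it because sensory neurons express it too. Library numbers in the labels run in the order of the times, so any batch of collection or preparation and the time of day cannot be told apart.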

How the data were processed

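Polyadenylated RNA of 12 libraries was sequenced as paired reads of 150 bases, per the labels' protocols. HISAT2 2.2.1 and StringTie 2.1.5 with build GRCm38.p6 are named in the submitters' processing notes; what each did, the annotation and the strand setting: not given in the sources used here. Deposited values are expected counts per gene, not whole, which the authors left unnormalized between libraries; from the values, they are proportional to coverage per base, so counting error is not modelled exactly. The 348 assembled loci (0.203% to 0.231% of a library) were left out of library sizes and tests.

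Counts were rounded and fitted with edgeR 4.0.16 in R 4.3.3 (filterByExpr, TMM, robust quasi-likelihood F test, 1 model of the 4 times over all 12 libraries, no covariate). Adjusted p-values are Benjamini-Hochberg over 25809 genes, threshold 0.05; 12785 genes were below the filter. Levels are CPM on TMM-scaled library sizes. Correlations used log2 CPM (prior count 2) and two-sided permutation tests with 100000 resamples, in SciPy 1.17.1 and numpy 2.4.6. For relations with a marker sum, the 2 libraries left out were those farthest from the median of the sum. For relations with single genes they were those farthest in the member, and for pairs of members those farthest in the first-named gene. Intervals of fold changes are 95% intervals from the fit. Alternatives were DESeq2 1.42.0, limma 3.58.1, other scaling and filters, approximate reads, the replicate number as a block and leaving out libraries; the fit was tested on simulated data.

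Genes named are the 6 members, the 3 genes of 5 CPM or more most correlated with each, and, of each list, genes past a test or else the 2 with the lowest any-time p and the most abundant; others are marked as named after their values were seen, or named for their known roles (peptide receptors, Arntl, cell markers). Members and lists were chosen with earlier results of these data known. Some listed genes, and sums that hold them, are not reported here; marker sums and their relations were computed without them, a choice made after the values were seen, as was leaving Pvalb out of the muscle sum.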

Additional observations from a re-analysis of the deposited data

How the results depend on the processing

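None of the 6 members passed the any-time, 24-h or 12-h test under any alternative run. Of 595 comparisons of 30 results with 24 other settings, 566 counted as unchanged. For fold changes this meant the same direction and side of the threshold. For amplitudes and any-time tests it meant the same side of the threshold, and for counts a value near the main one. The count of all genes past the 24-h test, 17, was 162 with DESeq2, 4 with the replicate block, 4 without the library richest in muscle markers at each time (ZT2 replicate 2, ZT8 replicate 3, ZT14 replicate 1 and ZT20 replicate 1, a setting chosen after seeing the data, which picks the same libraries with Pvalb left out) and 5 (without ZT20 replicate 3) to 17 without 1 library. The count past the any-time test, 13, was 292 with DESeq2, 7 with the replicate block, 8 without the muscle-richest libraries and 4 (without ZT8 replicate 1 or ZT20 replicate 3) to 22 (without ZT8 replicate 3) without 1 library. Libraries with the same replicate number did not deviate together (mean r of -0.008, 0.06 and -0.03 for replicates 1, 2 and 3, against -0.003 for different numbers), so the numbers give no pairing. Leaving out 1 library turned the direction of 3 fold changes: Calca ZT20 against ZT8 ran from -0.155 to 0.0228, Nmb ZT14 against ZT2 from -0.147 to 1.02 and Nmb ZT20 against ZT8 from -0.325 to 0.755. Without the muscle-richest libraries Nmb was at -0.0521 for ZT14 against ZT2 and at -0.171 for ZT20 against ZT8. The 24-h amplitude of Calcb lay between 0.18 and 0.29 and that of Nmb between 0.08 and 0.52 over the alternatives. The cause of these changes was not tested. Depth is not exactly known, so counting limits are not given.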

Other observations

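Some library-to-library relations of the 6 genes with other neuropeptide precursors passed the adjustment by only one of the 2 measures, and they are named after their values were seen. Nmb with Nppb, the precursor of the natriuretic peptide of itch-related neurons, had r = 0.82 and rho = 0.78 (adjusted permutation p 0.0399 and 0.0718 over 132 relations, n = 12), with 0.84 within times. Nppb spanned 16.3 to 28.0 CPM where Nmb spanned 13.4 to 69.7 CPM. Cartpt with Adm, the adrenomedullin precursor, had r = 0.80 and rho = 0.76 (adjusted permutation p 0.0499 and 0.0934, n = 12), with 0.86 within times. Cartpt with Nts, the neurotensin precursor, ran the other way at r = -0.78 and rho = -0.82 (adjusted permutation p 0.0650 and 0.0449, n = 12), with -0.77 within times. Chrnb4, a partner subunit of Chrna3, was also among the 10 genes most like Cartpt (r = 0.92, 6.46 to 16.7 CPM), as was Srd5a2, a steroid reductase (r = 0.93, 5.08 to 25.7 CPM).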
